A study of Mus musculus with 947 samples.

Results

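The change from the juvenile to the young adult mouse was followed in 3 tissues that form bone and blood, by comparing libraries of mice aged 1 month with libraries of mice aged 3 months in bone, marrow and spleen. The members were all libraries of these 3 tissues and 2 ages by their labels, apart from 1 spleen library of 3 months, and they numbered 35 of the 768 libraries used of the aging atlas. Each group held 6 libraries (4 of males and 2 of females), except spleen at 3 months, which held 5 (3 of males and 2 of females). All mice were untreated C57BL/6JN animals of the aging cohort, males and virgin females, perfused with saline before dissection, and 16 tissues and 10 ages were sampled in all. Bone was the femurs and tibiae. The question was which noncoding RNAs change in the same direction in all 3 tissues between these ages.

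The libraries held small RNA, and a level is the number of reads of an RNA per 1000000 mapped reads of its library (rpmm), as the authors computed it. The depth was 6.91 to 41.3 M mapped reads (M for 1000000) with a median of 22.5 M, and each library detected 5582 to 7362 RNAs. All 35 miRNA profiles were closest to the median profile of their own tissue (Pearson's r across miRNAs 0.961 to 0.996). A list of matrix and bone-forming miRNAs did not set bone apart from spleen. Its summed medians at 1 and 3 months were 29691 and 33599 rpmm in bone and 37256 and 41258 rpmm in spleen. More markers were chosen for the tissues than are given here. Of these, miR-451a and miR-142a-3p were chosen for both marrow and spleen. The highest library of miR-451a was at 79678 rpmm in marrow and 19522 rpmm in spleen. That of miR-142a-3p was at 34459 rpmm in marrow and at 125079 rpmm in 1 spleen library of 1 month. The following markers, 1 for each tissue, went with the labels. miR-150-5p, a miRNA of mature lymphocytes, was at 4743 to 13522 rpmm in spleen, 616 to 3284 rpmm in marrow and 37.9 to 282 rpmm in bone. miR-223-3p, a myeloid miRNA, was at 1858 to 22085 rpmm in marrow and 239 to 953 rpmm in spleen, and miR-199a-3p, a miRNA of mesenchymal cells, was at 4742 to 15215 rpmm in bone against 286 to 2252 rpmm in the other two tissues. The spleen library left out, replicate 01 of 3 months, had 3.34 M mapped reads, 2137 RNAs and an r of 0.852. The mice of a group were separate animals, but the labels do not tie the tissues of 1 mouse together, so libraries of different tissues were treated as independent and p-values over the 3 tissues may be too small for that reason. In such bulk tissue, fewer cells of a type and less RNA per cell cannot be told apart.

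A miRNA is a short RNA that guides a silencing complex to messenger RNAs, which it recognises mainly through its seed, bases 2 to 8. At an imprinted locus only the copy from the mother or from the father is used, and several such loci, among them H19 and Igf2, Dlk1-Dio3, Mest and Gnas, regulate growth in the fetus and the newborn and are turned down as growth slows. In the mouse, miR-296 and miR-298 come from the Gnas locus, miR-335 from Mest, and a large miRNA cluster from Dlk1-Dio3. The miR-29 family is known to lower collagens and other matrix proteins and to take part in bone formation and immune cell development. Small Cajal body RNAs (scaRNAs) guide the chemical modification of the RNAs of the spliceosome.

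The mature sequences of the miRNAs that lead the results are given here with the seed in capitals. The 4 from imprinted loci come first and then the miR-29 family, whose 3p strands share a seed that miR-29c-5p does not have.
miR-296-3p: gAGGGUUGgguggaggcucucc
miR-296-5p: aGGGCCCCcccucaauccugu
miR-298-5p: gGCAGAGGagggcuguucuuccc
miR-335-5p: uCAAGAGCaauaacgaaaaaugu
miR-29a-3p: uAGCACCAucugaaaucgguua
miR-29b-3p: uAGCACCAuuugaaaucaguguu
miR-29c-3p: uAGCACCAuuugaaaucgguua
miR-29c-5p: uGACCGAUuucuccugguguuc
The sequences are from RefSeq (GRCm38.p6), which held one for 35 of the 40 miRNAs named here that could be printed. The seed of the 3 miR-29 strands, AGCACCA, was held by 3 of the 1679 mature miRNAs of that table, and the seeds of miR-296-3p, miR-296-5p, miR-298-5p, miR-335-5p and miR-29c-5p were each held by 1. In GRCm38, Mir296 lies at chr2:174267047-174267125 and Mir298 at chr2:174267504-174267585, both on the minus strand, 378 bases apart and outside any annotated gene (GENCODE release 21). The nearest gene on their strand was Nespas, the antisense RNA of the Gnas locus, at 14112 bases from Mir296 and 13652 bases from Mir298. Mir335 lies in an intron of Mest, at chr6:30741299-30741396 on the plus strand. Mir29c lies at chr1:195037547-195037634 on the plus strand, in an exon of the noncoding gene A330023F24Rik that overlaps an exon of Cd46 on the other strand, and Mir29a lies at chr6:31062660-31062747 on the minus strand, outside annotated genes.

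Of all RNAs measured in the 3 tissues, miR-296-3p alone passed the test of a common change. Its mean log2 change from 1 to 3 months over bone, marrow and spleen was -1.03 (SE 0.15, 95% interval -1.34 to -0.72, adjusted p = 0.000215, limma over 3453 RNAs), and 1 of the 3453 RNAs, 0.029%, was called at an adjusted p under 0.05. In marrow, where it was most abundant, miR-296-3p was at 9.44, 17.9 and 21.1 rpmm (lowest, median and highest library) at 1 month and at 4.18, 6.62 and 10.3 rpmm at 3 months. Only the top of the older group reached the bottom of the younger. In spleen it was at 6.71, 9.39 and 14.1 rpmm at 1 month, and the 5 libraries of 3 months were at 3.84, 2.63, 4.86, 3.92 and 2.54 rpmm. The groups of spleen did not overlap. In bone it was at 1.74, 3.37 and 5.86 rpmm at 1 month and at 0.873, 1.49 and 3.20 rpmm at 3 months, with groups that overlapped. The log2 changes were -0.71 in bone, -1.17 in marrow and -1.21 in spleen, and their difference between tissues did not pass the test (limma F test, p = 0.341). All log2 changes here are of log2(rpmm + 1), which understates the change of RNAs near 1 rpmm, such as miR-296-3p in bone.

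The fall of miR-296-3p had the same direction in every alternative run, and it was called without any 1 of the 35 libraries (mean change -1.08 to -0.98, adjusted p 5.09e-05 to 0.000829). The 35 libraries came from 9 plates by the deposited annotation. With the plate as a covariate the mean change was -0.87, and its adjusted p of 0.311 in limma no longer passed. Within a plate, both ages of a tissue were present in 6 cases, and miR-296-3p was lower at 3 months in 6 of them, by a log2 change of -1.62 to -0.11 with a median of -0.80.

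**Figure D1:**
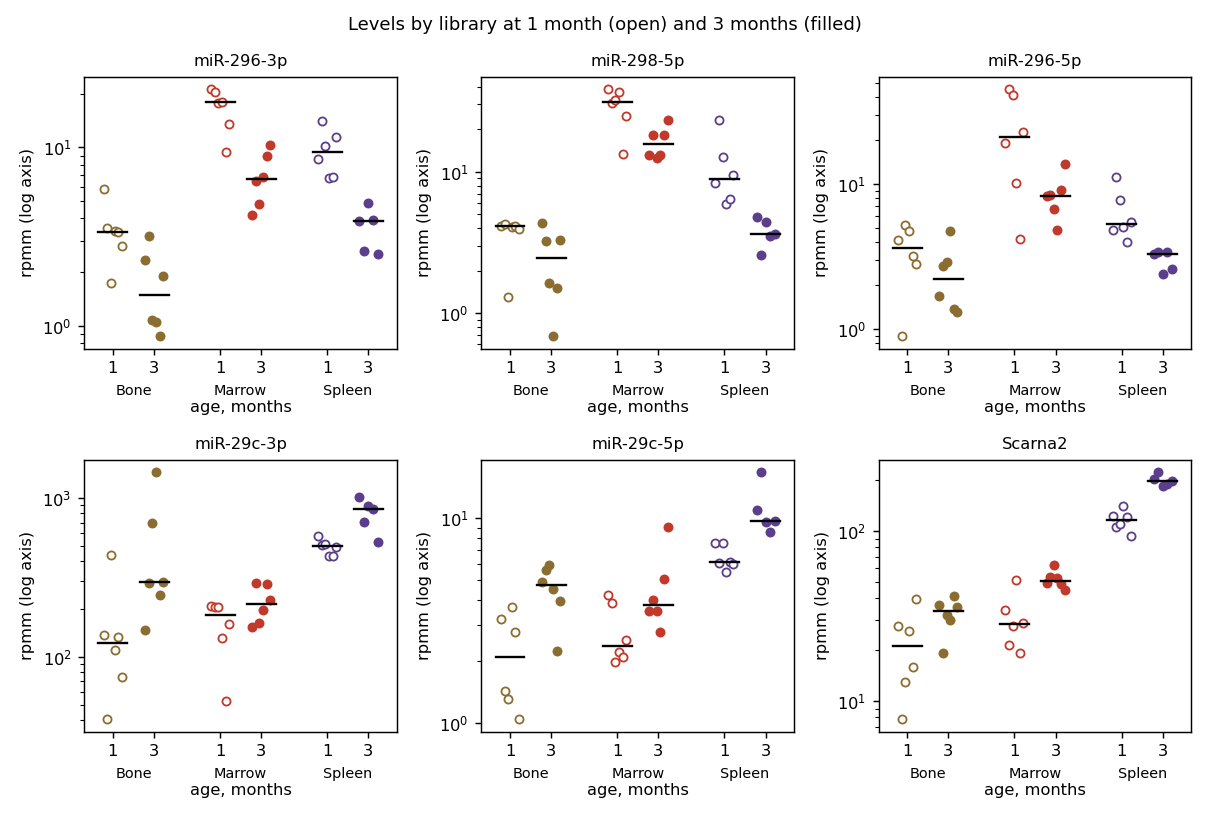
Levels of miR-296-3p, miR-298-5p, miR-296-5p, miR-29c-3p, miR-29c-5p and Scarna2 in each library, in rpmm on a log axis, for bone, marrow and spleen at 1 month (open points) and 3 months (filled points), with a black bar at the median. In spleen the 5 libraries of 3 months lie wholly below those of 1 month for miR-296-3p, miR-298-5p and miR-296-5p and wholly above them for miR-29c-5p and Scarna2.

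The neighbouring miRNAs of the Gnas locus were also lower at 3 months in all 3 tissues, without passing the adjusted test in the joint fit of all 35 libraries. The mean log2 change of miR-298-5p, made from the next precursor, was -0.82 (SE 0.18, 95% interval -1.18 to -0.46, adjusted p = 0.0555 in limma). In marrow miR-298-5p was at 13.4, 31.3 and 38.3 rpmm at 1 month and at 12.5, 15.7 and 23.1 rpmm at 3 months. Spleen held 5.97, 8.94 and 23.2 rpmm of it at 1 month and 4.83, 2.598, 4.38, 3.54 and 3.63 rpmm at 3 months. Spleen separated the ages fully, whereas the ranges overlapped in marrow and in bone, where the medians were 4.12 and 2.45 rpmm. The mean log2 change of miR-296-5p, the other strand of the miR-296 precursor, was -0.76 (SE 0.22, adjusted p = 0.485 in limma). Its medians were 21.0 and 8.33 rpmm in marrow, 5.27 and 3.27 rpmm in spleen and 3.63 and 2.21 rpmm in bone at 1 and 3 months, and the groups did not overlap in spleen alone.

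miR-335-5p, from the intron of Mest, had a mean log2 change of -0.79 (SE 0.21, adjusted p = 0.263 in limma), with -1.39 in bone, -0.22 in marrow and -0.76 in spleen. With the plate as a covariate these were -2.20, 0.11 and -0.54. In bone it was at 8.40, 12.3 and 44.02 rpmm at 1 month and at 2.65, 5.29 and 13.6 rpmm at 3 months. Spleen libraries had it at 9.64, 13.6 and 19.9 rpmm at 1 month and at 7.34, 9.33, 6.37, 8.52 and 6.39 rpmm at 3 months, with no overlap. In marrow it was low at both ages, with medians of 1.70 and 1.48 rpmm. The list of miRNAs from the Igf2, H19, Mest and Gnas loci had 10 members, of which 4 were tested in all 3 tissues, miR-296-3p, miR-296-5p, miR-298-5p and miR-335-5p. All 4 of them had a lower mean at 3 months with an unadjusted p under 0.05 in limma, against 1.71% of all RNAs, and their median change was -0.81 beside 0.05 for all RNAs. The 4 are not independent, since miR-296-3p, miR-296-5p and miR-298-5p come from 1 locus and the first 2 of them from 1 precursor. The list was chosen with earlier results of these data known, so the count is a description. The summed level of the list had medians of 28.2 and 12.3 rpmm in bone, 76.5 and 31.1 rpmm in marrow and 40.7 and 18.5 rpmm in spleen at 1 and 3 months. The 4 were lower at an unadjusted p under 0.05 also with miRNA reads or median ratios as the scale and with the plate as a covariate.

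H19, the growth-restraining noncoding RNA of the Igf2 locus, had the smallest p of bone. Its 7 annotated transcripts overlap between chr7:142575529 and chr7:142578143 on the minus strand and share reads. All 7 were lower at 3 months in bone with an unadjusted p under 0.05 in limma, against 0.743% of all RNAs. Their log2 changes were -1.16 to -0.82, and since they share reads, the count is a description. The transcript ENSMUST00000149974.1 was at 0.847, 1.52 and 1.97 rpmm at 1 month and at 0.263, 0.377 and 0.525 rpmm at 3 months in bone, with no overlap between the ages (log2 change -0.84, SE 0.17, unadjusted p = 0.000128, adjusted p = 0.586). Of the 2 ages compared, it reached 1 rpmm, the level that the local filter asks for, only at 1 month. Its p and its separation are therefore given as a description. The transcript ENSMUST00000136359.7 was at 2.12, 5.60 and 10.9 rpmm at 1 month and at 1.12, 1.58 and 3.69 rpmm at 3 months. ENSMUST00000136359.7 was called in bone by edgeR and by DESeq2 on the recovered reads, and by limma after median-ratio scaling. edgeR and DESeq2 also called ENSMUST00000149974.1, but under the same local filter, so those calls are a description as well. No H19 transcript passed the local filter on low values in marrow or spleen, where ENSMUST00000149974.1 had medians of 0.418 rpmm at 1 month and 0 at 3 months in marrow and reached at most 0.103 rpmm in spleen.

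The Dlk1-Dio3 cluster, the largest imprinted miRNA cluster of the mouse, held 112 miRNAs in its list, of which 17 were tested in all 3 tissues. All 17 had a negative mean change, with a median of -0.33 beside 0.05 for all RNAs, and 5 of them had an unadjusted p under 0.05 in limma, against 1.71% of all RNAs, while 0 passed the adjusted test. The direction of the 17 was the same with miRNA reads or median ratios as the scale. By tissue, 44 of 45 members tested were lower at 3 months in bone (median -0.45 beside 0.25 for all RNAs), 27 of 28 in spleen (median -0.28 beside -0.22) and 10 of 17 in marrow (median -0.08 beside 0.03). The spleen median was thus close to that of all RNAs. With miRNA reads as the scale 19 of 28 were lower in spleen (median -0.11), with median ratios 20 of 28 (median -0.14), and with the plate as a covariate 31 of 45 were lower in bone (median -0.24). The summed level was 440.6, 588 and 1379 rpmm at 1 month and 221, 419 and 713 rpmm at 3 months in bone. In spleen it was 123, 169 and 240.5 rpmm at 1 month and 81.2, 106 and 173 rpmm at 3 months, and in marrow 27.7, 65.6 and 188 rpmm against 22.97, 44.2 and 124 rpmm. The ranges overlapped in all 3 tissues.

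Of the abundant members of that cluster, miR-379-5p had the smallest p. Its medians were 91.6 and 67.0 rpmm in bone and 12.3 and 5.17 rpmm in marrow at 1 and 3 months. Its spleen levels were 16.8, 20.499 and 37.1 rpmm at 1 month and 16.5, 15.4, 13.3, 13.1 and 9.85 rpmm at 3 months, without overlap (mean change -0.79, SE 0.24, adjusted p = 0.616 in limma). miR-127-3p, made antisense to Rtl1, had medians of 121 and 68.3 rpmm in bone, 13.2 and 8.49 rpmm in marrow and 18.5 and 13.9 rpmm in spleen. miR-411-5p had medians of 61.5 and 39.7 rpmm in bone, and miR-136-5p had medians of 65.0 and 29.02 rpmm there, both with overlapping ranges. miR-541-5p, which lies in an intron of Mirg, was named after its values were seen. It had mean changes of -0.79, -0.76 and -0.63 in bone, marrow and spleen (mean -0.73, SE 0.23, adjusted p = 0.652 in limma).

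RNAs that were higher at 3 months in all 3 tissues were led, by the smallest p and after the values were seen, by Scarna2, miR-29c-5p and miR-135a-5p. The other members of the miR-29 family are described beside miR-29c-5p. None of them passed the adjusted test over all RNAs. miR-29c-5p, the minor strand of miR-29c, had a mean log2 change of 0.66 (SE 0.15, 95% interval 0.37 to 0.96, adjusted p = 0.0555 in limma). In spleen it was at 5.46, 6.09 and 7.62 rpmm at 1 month and at 10.99, 16.8, 9.65, 8.55 and 9.72 rpmm at 3 months. The spleen groups did not overlap. In bone it was at 1.04, 2.11 and 3.68 rpmm and then at 2.24, 4.71 and 5.89 rpmm, and in marrow at 1.99, 2.39 and 4.21 rpmm and then at 2.79, 3.76 and 9.11 rpmm.

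The main strand miR-29c-3p had a larger mean change, 0.97, with a larger error (SE 0.26, adjusted p = 0.305 in limma). It was at 40.5, 122 and 439.8 rpmm at 1 month and at 148, 294 and 1449 rpmm at 3 months in bone. In marrow it was at 52.95, 184 and 207 rpmm and then at 155, 214 and 291 rpmm. The spleen values were 428, 499 and 579.9 rpmm at 1 month and 1009, 706, 894, 848 and 525 rpmm at 3 months, so that 1 older library lay within the younger range. miR-29a-3p was more abundant, with medians of 1129 and 2378 rpmm in bone, 1878 and 2423 rpmm in marrow and 4931 and 8309 rpmm in spleen (mean change 0.77, SE 0.22, adjusted p = 0.485 in limma). miR-29b-3p had medians of 1021 and 1427 rpmm in bone, 1667 and 2148 rpmm in marrow and 6785 and 9104 rpmm in spleen (mean change 0.61, SE 0.24, adjusted p = 0.795 in limma). Both strands of miR-29c and miR-29a-3p were higher at 3 months in 6 of the 6 cases in which a plate held both ages of a tissue.

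Scarna2 had log2 changes of 0.70 in bone, 0.82 in marrow and 0.79 in spleen (mean 0.77, SE 0.17, 95% interval 0.42 to 1.12, adjusted p = 0.0555 in limma). Spleen had it at 93.2, 115 and 139 rpmm at 1 month and at 202, 220.5, 183, 189 and 196 rpmm at 3 months, a full separation. In marrow it was at 19.0, 28.2 and 51.5 rpmm and then at 44.9, 50.7 and 63.0 rpmm, and in bone at 7.79, 20.9 and 39.6 rpmm and then at 19.1, 33.7 and 41.1 rpmm. The bone change of Scarna2 was 0.44 with miRNA reads and 0.33 with median ratios as the scale, beside 1.10 and 1.02 in spleen, and it was 0.29 without bone replicates 12, 16 and 18. A further scaRNA, Scarna9, had a mean change of 0.61 (adjusted p = 0.616 in limma), and the small nucleolar RNA (snoRNA) Snord100 had a mean change of 0.71 (adjusted p = 0.652 in limma). Scarna2 was higher in 6 of the 6 cases within a plate, by 0.05 to 1.21.

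miR-135a-5p, which both Mir135a-1 and Mir135a-2 can give, had a mean change of 0.82 (SE 0.21, adjusted p = 0.257 in limma), with 1.54 in bone, 0.58 in marrow and 0.33 in spleen. The marrow change was 0.22 without replicate 47 of 1 month, and the spleen change was 0.60 with miRNA reads as the scale. In bone it was at 6.61, 7.62 and 10.7 rpmm at 1 month and at 8.48, 24.1 and 45.1 rpmm at 3 months. miR-582-5p, from an intron of Pde4d, had a mean change of 0.82 with an adjusted p of 0.616, and its medians in marrow were 7.54 and 18.5 rpmm.

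**Figure D2:**
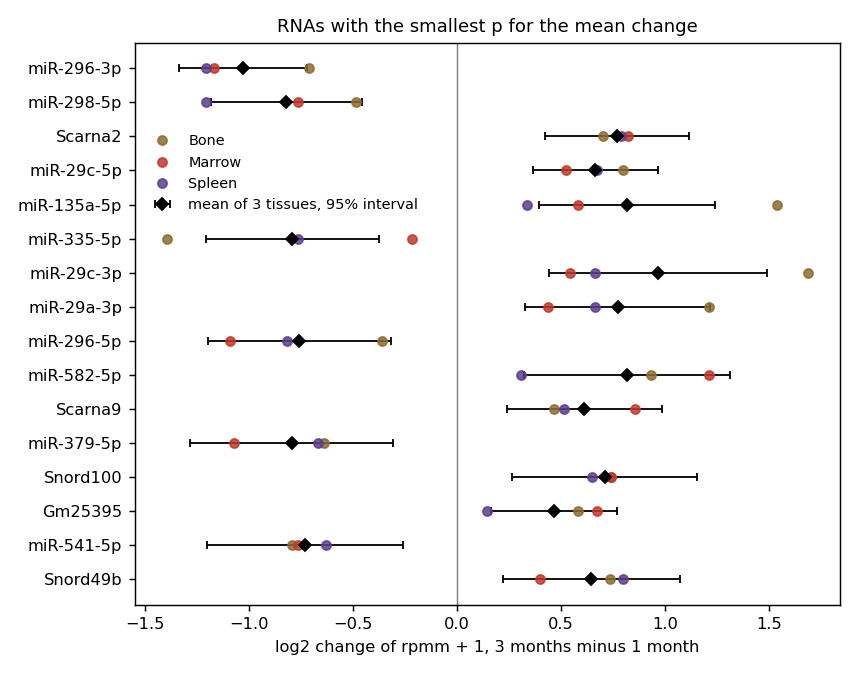
Log2 change from 1 to 3 months for the 16 RNAs with the smallest p of the mean change, with a diamond and its 95% interval for the mean over the 3 tissues and a dot for bone, marrow and spleen each. miR-296-3p, at -1.03, is the RNA that passed the adjusted test, and the dots of a tissue lie on the same side of 0 as the diamond for all 16.

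Within a single tissue no RNA passed the adjusted test. limma called 0 of 4578 RNAs (0%) in bone, 0 of 3834 (0%) in marrow and 0 of 3685 (0%) in spleen, with smallest adjusted p of 0.586, 0.798 and 0.559. The count of RNAs with a called change of 1 direction in 2 or more tissues was therefore 0. At an unadjusted p under 0.05, 165 RNAs (3.60%) were higher and 34 (0.743%) lower at 3 months in bone, 93 (2.43%) higher and 37 (0.965%) lower in marrow, and 35 (0.950%) higher and 177 (4.80%) lower in spleen. Of the 3453 RNAs tested in all 3 tissues, 12 were higher and 13 lower at such a p in at least 2 tissues. miR-296-3p was the 1 RNA with a p under 0.05 in all 3. On the recovered reads, edgeR called 2 RNAs in bone and 0 in marrow and spleen, and DESeq2 called 28 in bone, 0 in marrow and 2 in spleen, the latter being miR-296-3p and Scarna2. In the mean over the 3 tissues, 136 RNAs (3.94%) were higher and 59 (1.71%) lower at an unadjusted p under 0.05. Whatever the p, 380 of the 3453 RNAs were higher in all 3 tissues and 253 were lower in all 3. These counts were not tested against chance.

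The split by direction in a single tissue depended on the scale. In bone 82.9% of the RNAs with a p under 0.05 were higher at 3 months on the deposited scale, 27.2% with miRNA reads as the scale and 17.3% with median ratios. In spleen the shares were 16.5%, 84.0% and 73.5%, and in marrow 71.5%, 46.3% and 64.6%. The median change of all RNAs on the deposited scale was 0.25 in bone, 0.03 in marrow and -0.22 in spleen, and the changes of single RNAs in bone and spleen should be read against these medians. The mean change of miR-296-3p differed little between the scales, at -1.03 with miRNA reads and -1.05 with median ratios.

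Libraries that did not overlap between the ages were rare. In bone 10 RNAs (0.218%) lay wholly above and 2 (0.0437%) wholly below the 1 month range, in marrow 1 (0.0261%) above and 0 (0%) below, and in spleen 10 (0.271%) above and 38 (1.03%) below. No RNA of the 3453 (0%) was separated with a matching direction in more than 1 tissue. miR-467e-5p, from a large cluster of mouse miRNAs, was 1 of those separated in spleen. It was at 221, 236 and 398 rpmm at 1 month and at 177, 98.6, 163, 119 and 122 rpmm at 3 months, while its changes were 0.33 in bone and 0.05 in marrow.

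The X-linked miR-322 to miR-503 cluster, known from growing tissue, had 10 members tested in all 3 tissues. All 10 had a negative mean change (median -0.32), 3 of them with an unadjusted p under 0.05 in limma against 1.71% of all RNAs. All 10 were also negative with either other scale, and with the plate as a covariate 9 of 10 were, 0 of them with a p under 0.05. miR-322-5p, its most abundant member, had medians of 327 and 175 rpmm in bone, 707 and 695 rpmm in marrow and 856 and 802 rpmm in spleen. miR-503-5p was at 69.3, 93.8 and 132 rpmm at 1 month in spleen and at 58.2, 49.6, 66.5, 51.6 and 34.9 rpmm at 3 months, without overlap, and had medians of 214 and 169 rpmm in marrow and 41.6 and 38.3 rpmm in bone. The let-7 family, which is known to be low in early development and high in mature cells, had 0 of 9 members at a p under 0.05 and a median mean change of -0.09. let-7f-5p, its most abundant member, had medians of 4981 and 5641 rpmm in bone, 10492 and 7943 rpmm in marrow and 16425 and 13740 rpmm in spleen, with overlapping ranges. Of the miR-17-92 cluster and its paralogs, which promote proliferation, 0 of 20 members had a p under 0.05 in the mean over the tissues (median 0.16).

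The miRNAs of blood cells went in different directions in the 3 tissues, without a called difference. All 7 members of the erythroid list were higher at 3 months in bone (median change 1.12, 3 with an unadjusted p under 0.05 in limma against 3.60% of all RNAs), and all 7 were lower in spleen (median -0.91, 2 with a p under 0.05 against 4.80%). On the other scales the medians kept these signs, with 5 to 6 of the 7 higher in bone. The bone median was 0.62 without replicates 12, 16 and 18, and 1 of the 7 had a p under 0.05 there, as with either other scale and with the plate as a covariate. In marrow the median was -0.15, and it turned to 0.47 with the plate as a covariate and to 0.13 without bone replicates 12, 16 and 18 and marrow replicate 47. miR-451a, which red blood cells need to mature, was at 502, 1902 and 3126 rpmm at 1 month and at 1993, 3341 and 11588 rpmm at 3 months in bone. In marrow, where red blood cells form, it was at 8949.8, 25660.3 and 42666 rpmm and then at 24289, 35395 and 79678 rpmm. In spleen it was at 3565, 6833 and 19522 rpmm at 1 month and at 10289, 10735, 3978, 4871 and 4208 rpmm at 3 months, so that the groups overlapped in each tissue.

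miR-144-3p, from the same precursor cluster as miR-451a, had log2 changes of 1.49 in bone, 0.40 in marrow and -1.39 in spleen (limma F test of the difference, p = 0.0126, adjusted p = 0.599). miR-486a-3p, another red cell miRNA, was at 4.25, 24.3 and 94.5 rpmm at 1 month in spleen and at 10.6, 7.53, 4.24, 5.43 and 4.60 rpmm at 3 months. Of the 16 miRNAs of white blood cells, 5 were higher in bone with an unadjusted p under 0.05 (against 3.60% of all RNAs), 2 were lower in marrow (against 0.965% of all RNAs) and 4 were lower in spleen (against 4.80% of all RNAs). These counts depended on the scale. In spleen 2 were higher and 0 lower with either other scale, and in bone 2 were higher and 0 lower with miRNA reads and 0 higher and 1 lower with median ratios as the scale. Of all 3685 RNAs of spleen, 136 were higher and 26 lower with miRNA reads, and 150 and 54 with median ratios. Of all 4578 RNAs of bone, 22 were higher and 59 lower with miRNA reads, and 33 and 158 with median ratios. miR-142a-3p, found in all blood cells, was at 354, 859 and 1693 rpmm at 1 month and at 637, 1794 and 6771 rpmm at 3 months in bone, and miR-150-5p was at 37.9, 98.5 and 126 rpmm and then at 66.2, 199 and 282 rpmm. miR-181b-5p, which takes part in lymphocyte development, was lower in all 3 tissues (mean change -0.60, adjusted p = 0.652 in limma). Its medians were 1928 and 1036 rpmm in marrow and 689 and 456 rpmm in spleen, at an unadjusted p under 0.05 in both. In bone its log2 change was -0.43 (unadjusted p = 0.328 in limma), and the difference between tissues did not pass the test (limma F test, p = 0.686).

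The smallest p for a difference between tissues was that of miR-223-5p, the minor strand of the myeloid miR-223, but no RNA was called. The limma F test of the difference called 0 of 3453 RNAs (0%), with 164 (4.75%) at an unadjusted p under 0.05. miR-223-5p was at 8.11, 12.7 and 18.5 rpmm at 1 month and at 11.03, 36.5 and 45.03 rpmm at 3 months in bone. Its medians were 146 and 145 rpmm in marrow and 12.3 and 8.14 rpmm in spleen (log2 changes 1.16, -0.10 and -0.53, adjusted p = 0.599). By pairs of tissues, 0 of the 3453 RNAs were called. Of the 3453, 177 had an unadjusted p under 0.05 in limma between marrow and bone, 344 between spleen and bone and 119 between spleen and marrow.

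Markers of other cells moved with age in some groups. The 6 muscle miRNAs had a summed level of 2367, 5903 and 17464 rpmm at 1 month and of 6630, 13609.9 and 23719 rpmm at 3 months in bone, where 5 of 6 were higher (median 0.77) and miR-133a-3p had medians of 2465 and 5691 rpmm. In marrow their sum was 279, 1219.8 and 8978 rpmm and then 548, 973 and 2767 rpmm, and in spleen 91.4 to 965 rpmm and then 203 to 997 rpmm. The 4 neuronal miRNAs were all higher in marrow at 3 months (median 1.10), and miR-124-3p was there at 29.8, 78.1 and 256 rpmm and then at 136, 311 and 1091 rpmm. The other lists of markers (pancreas, liver and gut, epithelium, fat) had at most 1 member with a p under 0.05 in any tissue on the deposited scale without a covariate. With the plate as a covariate, all 7 epithelial miRNAs were higher in bone (median 1.23, 3 with a p under 0.05) and 6 of 7 in marrow (2 with a p under 0.05), and all 5 muscle miRNAs tested in spleen were higher there (median 1.61, 3 with a p under 0.05). Of all RNAs in these fits, 156 of 4578 were higher at such a p in bone, 73 of 3834 in marrow and 8 of 3685 in spleen. The median changes of all RNAs were 0.20, -0.12 and -0.14. The pancreatic miR-217-5p was at most at 5.43 rpmm in the 35 libraries. The part of these markers in the changes of the blood cell and imprinted lists was not tested.

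**Figure D3:**
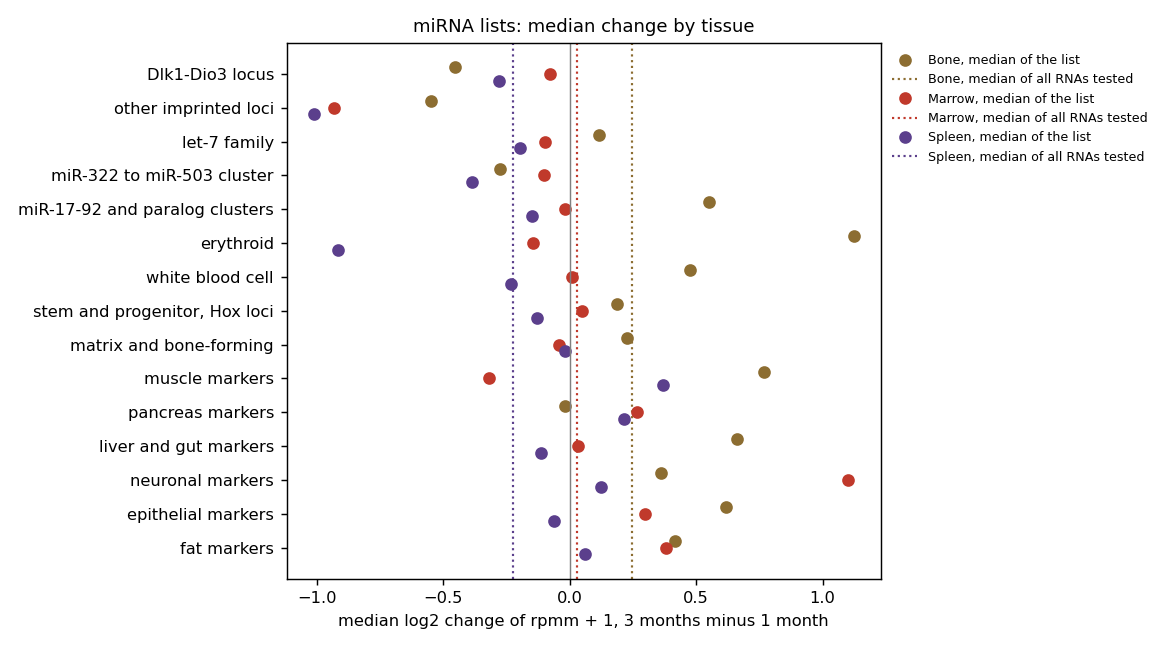
Median log2 change from 1 to 3 months of the tested members of 15 miRNA lists in bone, marrow and spleen, with a dotted line for the median of all RNAs tested in each tissue. The imprinted lists are below 0 in all 3 tissues, and the erythroid list is at 1.12 in bone and -0.91 in spleen. With miRNA reads or median ratios as the scale the sign turns for let-7 in bone and spleen and for miR-17-92, white blood cell, stem and progenitor, matrix, liver and gut and epithelial lists in spleen, among others.

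The 2 lists closest to bone formation and stem cells showed no common direction. Of the 26 matrix and bone-forming miRNAs tested in all 3 tissues 16 had a positive mean change (median 0.03), 4 were higher (against 3.94% of all RNAs) and 1 was lower (against 1.71% of all RNAs) at an unadjusted p under 0.05, and the 4 higher ones included miR-29a-3p, miR-29b-3p and miR-29c-3p. miR-143-3p, the most abundant, had medians of 3207 and 4885 rpmm in bone and 16201 and 17423 rpmm in spleen, and miR-199a-3p had medians of 9037 and 8412 rpmm in bone. Of the 22 miRNAs of stem and progenitor cells and the Hox loci 11 had a positive mean change (median 0.01). Among them miR-196b-5p, made in the Hoxa cluster, was lower at an unadjusted p under 0.05 in marrow (medians 378 and 259.9 rpmm) and in spleen (medians 16.8 and 9.63 rpmm).

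The share of each RNA class in the signal was compared between the ages, and 0 of 24 comparisons of a class within a tissue were past the threshold of the exact permutation test after adjustment (5 had an unadjusted p under 0.05, smallest adjusted p 0.0779). In spleen the share of snoRNA in the summed rpmm was 24.9% to 31.3% at 1 month and 31.7% to 34.99% at 3 months (28.2% ± 2.28 and 33.8% ± 1.27, SD, n = 6 and 5, exact permutation p = 0.00433, two-sided, the smallest that the design allows, adjusted p = 0.0779). In bone the share of tRNA fragments was 37.1% ± 7.32 at 1 month and 27.2% ± 2.98 at 3 months (SD, n = 6 each, exact permutation p = 0.00649, adjusted p = 0.0779), with ranges of 29.6% to 48.7% and 23.6% to 30.3%. The share of miRNA was 5.198% ± 1.69 and 5.97% ± 1.84 in bone, 11.1% ± 3.05 and 12.5% ± 5.27 in marrow and 18.09% ± 5.55 and 14.2% ± 2.06 in spleen (SD, n = 6, or 5 for spleen at 3 months). None of these differences in the miRNA share had an unadjusted p under 0.05 (exact permutation p = 0.448 in bone, 0.634 in marrow and 0.143 in spleen).

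**Figure D4:**
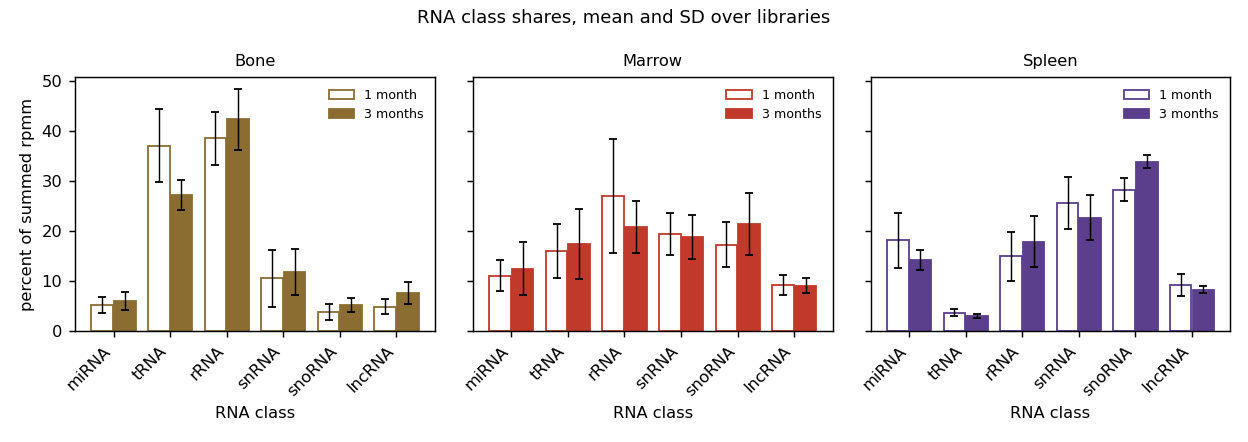
Mean share (percent of the summed rpmm) of miRNA, tRNA, rRNA, snRNA, snoRNA and lncRNA at 1 and 3 months in bone, marrow and spleen, with bars for the SD over 6 libraries (5 for spleen at 3 months). snoRNA is at 28.2% and 33.8% of the signal in spleen and tRNA at 37.1% and 27.2% in bone at the 2 ages, and neither difference passed the test after adjustment.

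The levels at the later ages are given as a description. The median of miR-296-3p in marrow was 17.9 rpmm at 1 month, 6.62 at 3 months, 2.93 at 6 months and 1.28 at 27 months, and in bone 3.37, 1.49, 0.716 and 0.458 rpmm. In spleen it was 9.39, 3.84, 3.18 and 2.16 rpmm at these ages. The median at 3 months was thus below that of 1 month and above that of every later age in the 3 tissues, while single libraries stood far above their group, at 15.7 rpmm in marrow and 12.2 rpmm in spleen at 9 months and 7.56 rpmm in bone at 21 months. miR-29c-3p had medians of 122, 294, 774 and 811 rpmm in bone at 1, 3, 6 and 27 months, 499, 848, 938 and 1283 rpmm in spleen and 184, 214, 232 and 455 rpmm in marrow. Scarna2 had its highest median of all ages in spleen at 3 months, 196 rpmm, and medians of 145 to 185 rpmm from 6 to 27 months.

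**Figure D5:**
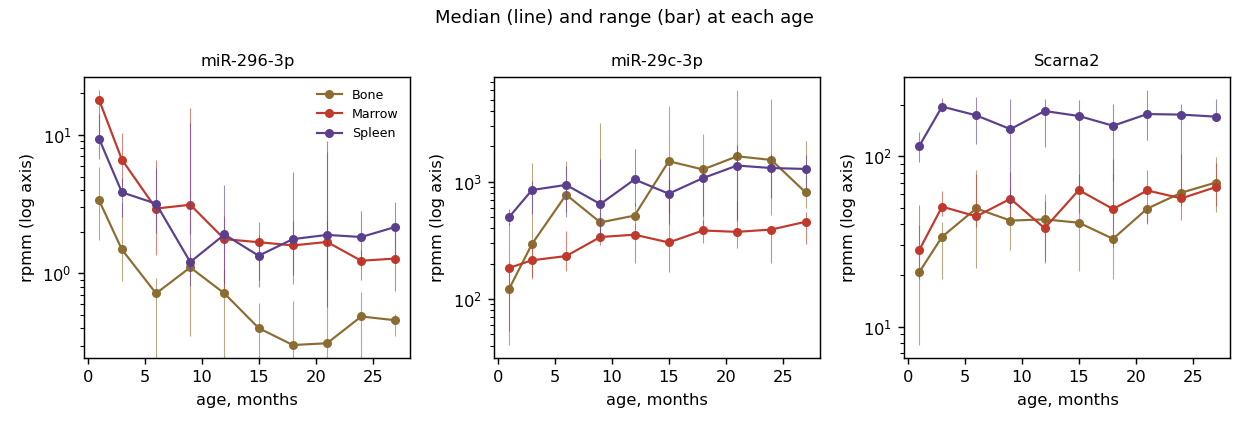
Median (line) and range (bar) of miR-296-3p, miR-29c-3p and Scarna2 in rpmm on a log axis, at the 10 ages from 1 to 27 months in bone, marrow and spleen. miR-296-3p goes from 17.9 to 6.62 rpmm in marrow between the first 2 ages and to 2.93 rpmm at 6 months, and bars that reach 0 are cut at the lower edge.

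The change was compared with that of the 11 other tissues that had at least 3 libraries at both ages. The difference between the mean change of the 3 tissues and that of the others, fitted over 151 libraries, was called for 0 of 2815 RNAs (0%) by limma, with 361 at an unadjusted p under 0.05. miR-296-3p, miR-298-5p and miR-296-5p did not pass the local filter in every tissue and were left out of this fit, so their difference was not tested. miR-296-3p passed it in 8 of the other tissues and was lower at 3 months in 8 of them (median log2 change -0.62, from -1.70 in pancreas to -0.10 in gonadal fat). miR-298-5p was lower in 9 of 9 tissues (median -0.65) and miR-296-5p in 9 of 9 (median -0.79).

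In the mean over the 11 other tissues, 554 of the 2815 RNAs (19.7%) fell and 11 (0.391%) rose by the adjusted test, so that a fall there was common. Of the other RNAs named above, miR-541-5p fell in the other tissues (mean change -0.83, adjusted p = 0.000808 in limma, lower in 10 of 11), as did miR-335-5p (-0.68, adjusted p = 0.00698, lower in 8 of 11) and miR-379-5p (-0.62, adjusted p = 0.0165, lower in 9 of 11). miR-29a-3p rose there (0.61, adjusted p = 0.0156, higher in 8 of 11), and so did miR-29c-3p (0.49, adjusted p = 0.0257, higher in 7 of 11) and miR-29c-5p (0.38, adjusted p = 0.0267, higher in 8 of 11). Scarna2 had a mean change of 0.17 in the other tissues (adjusted p = 0.337, higher in 6 of 11), and the difference of 0.60 from the 3 tissues did not pass the adjusted test (unadjusted p = 0.0163, adjusted p = 0.387).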

How the data were processed

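RNA of tissues was sequenced by the authors as single-end small RNA libraries (MGIEasy kit, BGISEQ500RS), mapped with Bowtie allowing 1 mismatch and assigned with miRMaster to miRNAs (miRBase), tRNA fragments (GtRNAdb), piRNAs (RNACentral) and other noncoding RNAs (Ensembl). The deposited values are a signal in reads per 1000000 mapped reads (rpmm), a unit whose sum over the RNAs of a library can exceed that total. The authors left out libraries of low depth and RNAs that stayed under 1 rpmm everywhere. Whole reads were recovered for 100% of the values outside the miRNAs and 99.0% of miRNA values (tolerance 0.05 reads, values up to 1000 reads) and gave the depth and the tests on reads. Because each value is divided by the mapped reads of its library, a class that takes more reads lowers the others. 3 of the 771 columns were not used, since the annotation pairs them with a sample whose labels differ.

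RNAs of at least 1 rpmm in 10% of a tissue's libraries, and above 0 in a library compared, were tested on log2(rpmm + 1) with limma 3.58.1 (R 4.3.3, eBayes with trend, two-sided, Benjamini-Hochberg over all RNAs tested, called at an adjusted p under 0.05), as 3 months minus 1 month. All libraries entered 1 fit with a mean for each tissue and age for the mean change over the 3 tissues and its difference between them. Class shares were compared by exact permutation of the libraries. The fits and the permutation test were tried on simulated data. edgeR 4.0.16 and DESeq2 1.42.0 on the recovered reads, other scales, filters, pseudocounts, covariates and left-out libraries were alternatives. The members, lists and tests were chosen with earlier results of these data known. Members of a list that come from 1 locus or 1 precursor are not independent, so counts of members are a description. The named RNAs were to be those called in all tissues or in 1, and since those rules gave none, the text names the most abundant members of each list and, chosen after their values were seen, the RNAs with the smallest p. Spleen replicate 01 of 3 months was left out by the definition of the comparison. Values of the authors' own comparisons were not used.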

Additional observations from a re-analysis of the deposited data

Results flagged for a closer look

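Of 318 groups of 4 to 6 libraries checked, 45 had a library at one end that lay far from the others by Dixon's criterion, where chance gives about 1 in 20 groups. The values below are given in rpmm unless they are shares, and their part in the results was not tested except where a left-out library is named in the next section.

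In bone at 1 month, replicate 16 was lowest for miR-298-5p (1.303) and highest for miR-29a-3p (2817), miR-29c-3p (439.8), miR-223-3p (4100.4), miR-140-3p (4083) and the share of piRNA (0.00215%). This library also had the lowest depth of the 35, 6.91 M mapped reads. In bone at 3 months, replicate 18 was highest for miR-335-5p (13.6), Scarna9 (6.32), miR-451a (11588) and miR-144-3p (11164), and replicate 53 was highest for miR-322-5p (435).

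In marrow at 1 month, replicate 47 was lowest for miR-135a-5p (29.8), miR-503-5p (108), let-7a-5p (3002) and the share of snRNA (11.2%), and highest for miR-93-5p (9923), miR-150-5p (3284), miR-140-3p (1442) and the share of rRNA (49.04%). Replicate 15 of that group was highest for miR-127-3p (37.2), miR-136-5p (22.1), miR-142a-3p (22316.5) and the muscle miRNA miR-133a-3p (4662). In marrow at 3 months, replicate 56 was highest for miR-29c-5p (9.11), miR-451a (79678), miR-144-5p (421), miR-142a-3p (34459) and miR-126a-3p (2389.9) and lowest for the share of snRNA (10.2%), and replicate 11 was highest for miR-133a-3p (1679) and for H19 transcript ENSMUST00000149974.1 (0.190).

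In spleen at 1 month, replicate 48 was highest for miR-136-5p (131), miR-29b-3p (20944), miR-144-3p (23980.0), miR-142a-3p (125079) and the share of miRNA (28.7%). Replicate 24 was highest for miR-379-5p (37.1), and replicate 23 was highest for miR-451a (19522) and lowest for the share of scaRNA (0.152%). In spleen at 3 months, replicate 11 was highest for miR-136-5p (44.4), miR-411-5p (23.4), Scarna9 (21.8), miR-150-5p (13522) and miR-126a-3p (4182), and replicate 06 was highest for H19 transcript ENSMUST00000149974.1 (0.0953).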

How the results depend on the processing

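miR-296-3p kept a negative mean change in all 13 alternatives that could test it (-1.19 to -0.65) and was called in 12 of them. With the plate as a covariate 0 RNAs had a called mean change over the 3 tissues (miR-296-3p at an adjusted p of 0.311), and 0 among RNAs with a mean of at least 10 rpmm, where miR-296-3p was not tested. The set of 12 title numbers as a covariate gave 2 calls, a pseudocount of 5 gave 4, counting identical RNAs once gave 4 and no local filter gave 25, many of them near 0 rpmm. Alternatives added after the data were seen gave 6 calls (miRNAs tested alone) and 7 (without bone replicates 12, 16 and 18 and marrow replicate 47). Of the RNAs just short of the threshold, miR-298-5p was called in 6 of 13 alternatives (adjusted p down to 0.00392), miR-29c-5p in 4 (down to 0.00989) and Scarna2 in 3 (down to 0.0155). Leaving out 1 library gave 1 to 3 calls, with miR-296-3p in each, miR-298-5p and Scarna2 in 3 and miR-29c-5p in 1. There were 2 calls without bone replicate 16 or 46 of 1 month, bone replicate 02 or 05 of 3 months or marrow replicate 44 of 1 month, and 3 without bone replicate 42 of 3 months or marrow replicate 47 of 1 month. The difference between tissues was called for 2 RNAs with no local filter. In bone, median-ratio scaling gave 1 call, edgeR 2 and DESeq2 28 (27 of them lower). In spleen DESeq2 gave 2 and miRNAs alone 1. Calls within tissues, of the difference between tissues and of class shares were 0 without any 1 library. For these changes of counts the cause was not tested. Marrow had 0 calls in all 16 alternatives. No called result turned its direction. No paired analysis was possible because the title numbers of the 2 ages of a tissue do not overlap. RNAs under 1 rpmm rest on few reads in the shallowest library (6.91 M mapped reads).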
